A study of Brassica juncea with 2 samples.

Results

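The 26S proteasome and autophagy are the main routes by which plant cells break down their own proteins and organelles. Transcripts of both were taken from a seedling RNA-seq table of Brassica juncea var. CS52 by their annotation, as every unigene (assembled transcript) whose description holds the word proteasome, regulatory particle or autophagy. This gave 97 of 47513 unigenes, 60 of them named for the proteasome and 37 for autophagy. Each name begins with Bju_CS52, which is left out here. R in the name marks unigenes with a match in B. rapa, 1 of the parent species of B. juncea, and NR those without one. Of the 97 unigenes 96 were R, and they fell on 60 B. rapa genes, so that several unigenes often shared 1 gene. Whether such unigenes are pieces or copies of the gene was not tested, as no sequences were at hand. Below, fragment means only a unigene that shares its B. rapa gene with a longer one. The single NR unigene was described as RPT2B. All 27376 R unigenes carried a description but only 1851 of 20137 NR unigenes did (9.19%), so proteasome and autophagy transcripts without a B. rapa match may be missing from this group.

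The 2 libraries compared both came from whole seedlings of the salinity-tolerant variety CS52 at an age of 2 weeks, grown in a hydroponic system. The SS library came from seedlings kept in 200 mM salt for 24 h and the CTRL library from seedlings kept in water and collected at the same time. About 10 seedlings were pooled for each library, and with 1 library per condition there is no replicate spread and no test. Values are given as reads and as RPKM (reads scaled to the length of the unigene and to all high-quality reads of the library), with the ratio of SS to CTRL and its 95% counting interval, which covers neither differences between seedling pools nor PCR duplicates.

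The libraries held 77867220 reads on unigenes in CTRL and 73982305 in SS, of which the 97 unigenes took 166831 and 155916 reads, or 0.214% and 0.211%. Leaf genes for light-harvesting proteins were found in both libraries (17 of 17 unigenes at 1 RPKM or more), with a median of 1859.6 RPKM in CTRL and 1132 in SS, and the part of that difference in the results below was not tested. In contrast, root hair specific genes were near the lower limit, with at most 3.95 RPKM in CTRL and 3.61 in SS. In tissue from whole seedlings, fewer cells of a type and less RNA per cell cannot be told apart.

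The proteasome is a barrel, the 20S core, closed by a 19S regulatory particle. The barrel is built of outer alpha rings and inner beta rings, and some of the beta subunits carry the sites that cut proteins. The base of the 19S particle holds a ring of ATPases (RPT subunits) that unfold the substrate, and non-ATPase subunits (RPN) of the base and lid that bind ubiquitin-tagged proteins, remove the tag and hold the particle together. Autophagy encloses larger cargo in a membrane that is delivered to the vacuole, through the products of ATG genes that start the membrane, supply lipid to it and conjugate small proteins onto it. Both routes are used by plants under stress and nutrient shortage.

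Most of these unigenes had nearly the same level in both libraries. Of the 96 unigenes that reached 1 RPKM in either library, 77 (80.2%) differed by less than 1.25-fold, where 60.6% of all 43250 unigenes at that level did so. Just 1 of 96 was at least 2-fold higher in SS, beside 1.91% of all unigenes, and 1 of 96 was at least 2-fold lower, beside 4.21%. At 1.5-fold, 2 unigenes were higher (all unigenes 5.61%) and 5 were lower (all unigenes 12.3%). The one unigene under the limit, a second proteasome inhibitor-related fragment (R_867), had 16 reads in CTRL and 19 in SS. Each of the 97 unigenes had reads in both libraries. RPT2B and a fragment of proteasome activating protein 200 (R_7521) reached 1 RPKM only in SS, and 2 fragments of ATG2 (R_1319 and R_16552) reached it only in CTRL, so these 4 entered the counts through the library in which they were higher.

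**Figure D1:**
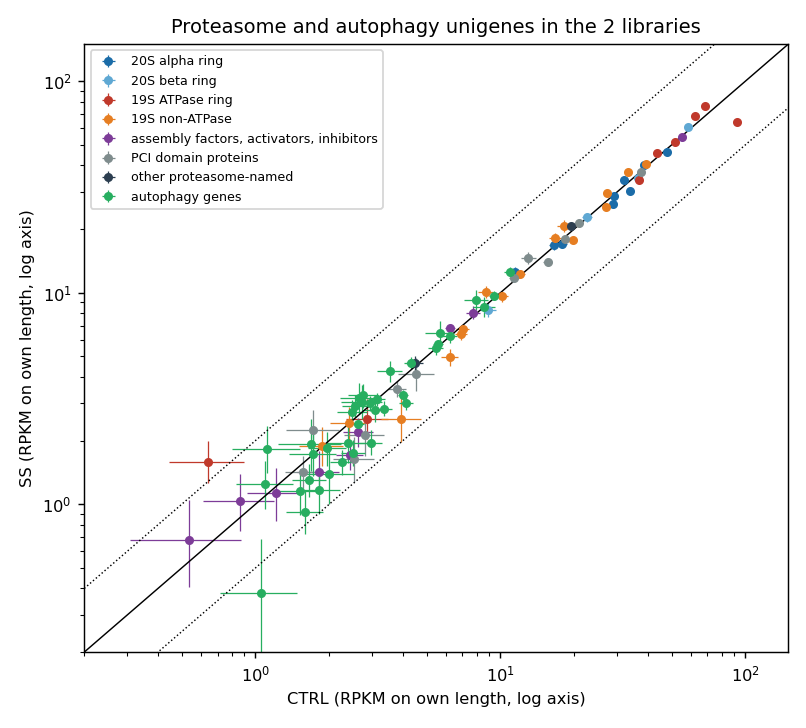
RPKM on each unigene's own length in CTRL (x axis) and SS (y axis), both on log axes, for the 97 proteasome and autophagy unigenes coloured by group. Bars are 95% Poisson intervals of the reads, the solid line marks equal levels and the dotted lines mark 2-fold. The proteasome subunits lie toward the upper right along the line of equal levels, and only RPT2B above it and an ATG2 fragment below it lie beyond 2-fold.

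The 7 unigenes past 1.5-fold were thinly covered, with between 32 and 134 reads in CTRL, and 6 of them were shorter than 600 bp. An eighth unigene, R_21121 of ATG9, with 342 reads in CTRL and 1220 bp, had a ratio of 0.661 and fell short of 1.5-fold only through the added 0.1 RPKM (log2 ratio −0.57). Unigenes under 600 bp also varied more in the table as a whole, where the SD of the log2 ratio was 0.76 against 0.58 for longer ones. Here and below the log2 ratio is log2((SS + 0.1)/(CTRL + 0.1)) of the RPKM, which understates the change of low unigenes, whereas ratios carry no added constant. Among the 50 members that reached 5 RPKM in CTRL or SS, 49 (98%) differed by less than 1.25-fold, beside 69.9% of 17396 unigenes at that level. The single exception was a gene for the ATPase RPT6A. R_18814 of RPN5, with a ratio of 0.799, stayed under 1.25-fold only through the added 0.1 RPKM. At that level 0 of 50 members were at least 2-fold higher (all such unigenes 1.29%) or lower (2.18%), and 0 of 50 passed 1.5-fold higher (4.36%) or lower (6.4%).

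More unigenes differed beyond counting error than past a fold. The counting interval of the ratio lay above 1 for 15 of 96 unigenes (all unigenes 20.7%) and below 1 for 22 (all unigenes 31.8%). Of the 50 members at 5 RPKM or more, 12 lay above 1 (all such unigenes 32.3%) and 8 below (35.8%). With many reads such an interval leaves out 1 at a small ratio, and it says nothing of other seedlings.

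Subunits of the core and 19S particle were more highly expressed than autophagy genes. The 37 unigenes of the 20S core and the 19S particle had a median of 22.5 RPKM in CTRL, above 91.3% of all unigenes, whereas the 37 autophagy unigenes had a median of 2.72 RPKM, above 40.9%. The former fell on 33 genes and the latter on only 16. Summed by name, the CTRL median was 9.44 RPKM for autophagy and from 27.1 to 49.1 RPKM across the core and 19S groups. Where unigenes are pieces of 1 gene, such sums count that gene more than once. The median log2 ratio was 0.00 in both groups and −0.06 over all unigenes. The SD of the log2 ratio was 0.27 for core and 19S unigenes, 0.36 for autophagy unigenes and 0.65 over all unigenes. The low autophagy unigenes carried fewer reads, and the share of the spread that comes from this was not tested.

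**Figure D2:**
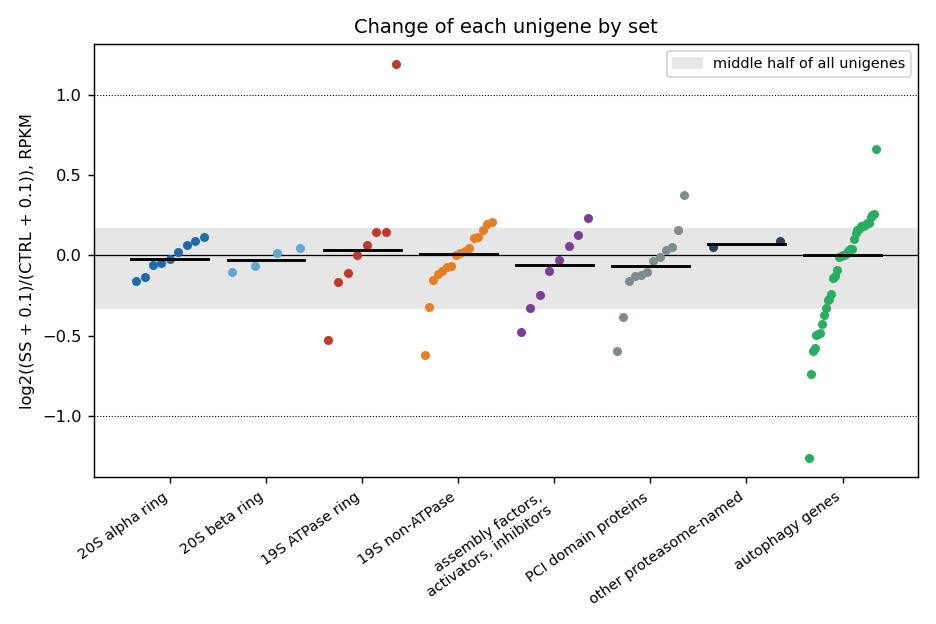
Log2 ratio of SS to CTRL for each of the 96 unigenes at 1 RPKM or more in either library (y axis), by group (x axis). Points are single unigenes, black lines are group medians, the grey band runs from the 25th to the 75th percentile of all 43250 unigenes and the dotted lines mark 2-fold. Points of both 20S rings lie within the band, and the autophagy group spreads furthest.

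The alpha ring was represented by 9 unigenes on 8 B. rapa genes, each of which differed by less than 1.25-fold. In plants, this ring forms the gate through which substrates enter the barrel. PAA2, the highest of them, had 4748 reads in CTRL and 4358 in SS, or 47.8 and 46.3 RPKM. PAB1 had 38.5 and 40.3 RPKM, and PAD1 had 29.2 and 28.8. The largest ratio was that of a PAD2 unigene (R_18559, described as alpha subunit D2), at 11.5 RPKM in CTRL and 12.5 in SS. The other PAD2 unigene (R_18420), on the same B. rapa gene, went from 28.9 to 26.3 RPKM. The interval of R_18559 held 1 (0.998 to 1.18), and that of R_18420 lay under 1 (0.863 to 0.964). Summed over both unigenes, PAD2 reads had a ratio of 0.962 (95% interval 0.919 to 1.01).

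By gene, with the reads of unigenes summed, the ends of this narrow range were PAC1 and PAG1. PAC1 had 3298 reads in CTRL and 3330 in SS (ratio 1.07, interval 1.02 to 1.12). PAG1 had 3606 and 3053 reads (ratio 0.894, interval 0.852 to 0.939). These were the only alpha subunit genes of 8 whose interval left out 1 without further scaling. Centring the ratios on the highly covered unigenes, a shift of 0.02 on the log2 scale, would also move the upper bounds of PAA2 and PAD2 under 1. The sister genes PAF1 and PAF2, which encode forms of 1 subunit, had similar levels, at 17.8 and 17.1 RPKM for PAF1 and 16.6 and 16.8 for PAF2. Summed by subunit name, CTRL levels in the ring spanned 16.6 to 47.8 RPKM, a 2.89-fold range, and SS levels a 2.76-fold range. No unigene was described as alpha subunit E.

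The beta ring had 4 unigenes, and the counting interval of each held 1. For a unigene of beta subunit D1 (R_16352) the upper bound was 1.005, and the centring described for PAA2 and PAD2 would move it under 1. Beta subunit G1 (PBG1) was the highest, with 5470 reads in CTRL and 5350 in SS, or 58.5 and 60.5 RPKM. Beta subunit C2 (PBC2) had 22.5 RPKM in CTRL and 22.7 in SS. Of the 2 genes for subunit D1 (PBD1), the higher had 36.4 and 34.7 RPKM and the lower 8.93 and 8.31 RPKM, so the order of the copies was kept. The catalytic beta subunits were not among the described members, and other unigenes carry only the name of the enzyme superfamily to which 20S subunits belong, the Ntn hydrolases (given with the related lists).

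The ATPase ring held the highest levels of the whole group and its clearest difference. RPT6A, a subunit of the ATPase ring, was represented by 2 unigenes on 2 B. rapa genes. R_18949, on Bra020079, had 9217 reads in CTRL and 6062 in SS, or 92.5 and 64.3 RPKM (ratio 0.695, interval 0.672 to 0.718). R_24611, on Bra002279, had 10218 reads in CTRL and 10715 in SS, or 68.7 and 76.0 RPKM (ratio 1.11, interval 1.08 to 1.14). The order of the copies therefore turned over, with R_18949 the higher in CTRL and R_24611 the higher in SS. Summed over both, reads went from 19435 to 16777 (ratio 0.912, interval 0.893 to 0.931). Reads from similar copies may be divided between unigenes by the mapping. Neither the likeness of the RPT6A unigenes nor such a division was tested.

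The other ATPases were close to equal between the libraries. RPT3 had 8707 reads in CTRL and 9114 in SS, or 62.1 and 68.7 RPKM (ratio 1.11, interval 1.07 to 1.14). The main RPT2A unigene (R_24770) had 7797 and 7390 reads, or 51.7 and 51.8 RPKM. RPT5A had 43.7 and 45.6 RPKM (ratio 1.04, interval 1.01 to 1.08), and its lower bound is so close to 1 that centring the ratios on the highly covered unigenes, a shift of 0.02 on the log2 scale, would move it past 1. RPT4A had 5318 and 4676 reads, or 36.6 and 34.0 RPKM (ratio 0.929, interval 0.893 to 0.966). A second RPT2A gene was hardly covered, with 106 and 89 reads on a unigene of 390 bp (R_4797).

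RPT2B, the single NR unigene (NR_10967, 560 bp), had 34 reads in CTRL and 80 in SS, or 0.64 and 1.59 RPKM (ratio 2.49, interval 1.64 to 3.83, log2 ratio 1.19). It is a sister form of RPT2A in Arabidopsis thaliana. It was the only member at least 2-fold higher in SS, but its SS level was far under that of RPT2A, at 51.8 RPKM. It reached the limit of 1 RPKM only in SS.

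**Figure D3:**
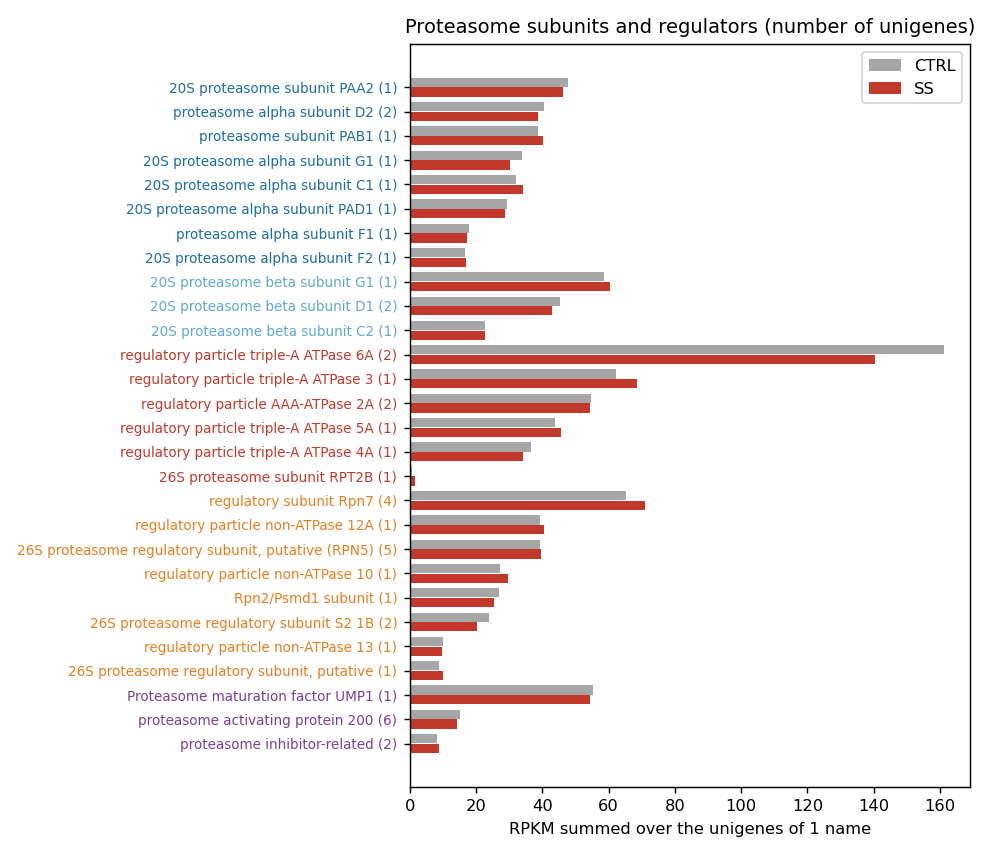
RPKM summed over unigenes of the same description (x axis) in CTRL (grey) and SS (red) for proteasome subunits and regulators, with the number of unigenes in parentheses and label colours for the groups. There is 1 library per bar and no error bar. Where unigenes are pieces of 1 gene, the sum counts that gene more than once. RPT6A (regulatory particle triple-A ATPase 6A) stands highest in both libraries, at 161 RPKM in CTRL and 140 in SS, and RPT2B lowest.

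The non-ATPase subunits of the 19S particle comprised 16 unigenes on 13 genes, of which 15 differed by less than 1.25-fold on the log2 scale given above. Rpn7, a subunit of the lid, was named in the description of 4 unigenes on 4 B. rapa genes. Together they had 65.3 RPKM in CTRL and 70.9 in SS. The same description names the PCI domain, which subunits of the COP9 signalosome also carry. Whether all 4 encode Rpn7 was not tested. The leading unigene of the 4 (R_23685) had 4602 reads in CTRL and 4865 in SS, or 33.2 and 37.1 RPKM (ratio 1.12, interval 1.07 to 1.16). The second, R_9648, had 922 and 998 reads (ratio 1.14, interval 1.04 to 1.25). The lower pair R_25120 and R_25719 had ratios of 0.956 (interval 0.876 to 1.04) and 0.922 (interval 0.845 to 1.01). The upper bound of R_25719 falls under 1 after the centring described for RPT5A. The leading unigenes of this description were thus the ones with slightly higher levels in SS.

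RPN10, a ubiquitin receptor of the particle, had 3676 reads in CTRL and 3776 in SS, or 27.2 and 29.6 RPKM (ratio 1.09, interval 1.04 to 1.14). RPN13, also known as a ubiquitin receptor, had 10.1 and 9.64 RPKM (ratio 0.952, interval 0.874 to 1.04). RPN12A, a lid subunit, was the highest single unigene of this group at 39.3 and 40.6 RPKM. RPN5, also of the lid, had 5 unigenes on 2 genes, with an RPKM sum of 39.3 in CTRL and 39.6 in SS. Where unigenes are pieces of 1 gene, such a sum counts that gene more than once. One RPN5 unigene (R_18814) went from 612 to 463 reads (ratio 0.799, interval 0.707 to 0.903). The leading unigene of the same B. rapa gene (R_14349) instead went from 1196 to 1223 (ratio 1.08, interval 0.997 to 1.17). A unigene described only as a putative regulatory subunit (R_17090) had 761 and 835 reads (ratio 1.16, interval 1.05 to 1.28). Which subunit it encodes is not given by the description.

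The large scaffold subunits of the base were slightly lower in SS. RPN2 had 8434 reads in CTRL and 7475 in SS, or 27.02 and 25.3 RPKM (ratio 0.936, interval 0.907 to 0.966). S2 1B, a form of RPN1, had 7647 and 6503 reads on its long unigene (R_30399), or 19.8 and 17.8 RPKM (ratio 0.898, interval 0.869 to 0.929). A short unigene on another B. rapa gene for S2 1B (R_814, 313 bp) had 117 and 71 reads (ratio 0.641, interval 0.470 to 0.868) and was the only core or 19S unigene past 1.5-fold lower in SS.

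Long genes as a whole had lower ratios in these libraries, which bears on these subunits. The unigenes were grouped by B. rapa gene, their reads were summed, and the genes were ordered by their longest unigene. Genes without a unigene at 1 RPKM or without reads in both libraries were left out. The median ratio of SS to CTRL was 0.954 for 10214 genes with a longest unigene under 1500 bp, 0.955 for 4260 genes from 1500 to under 3000 bp, 0.894 for 631 genes from 3000 to under 5000 bp and 0.817 for 56 longer ones. Of the 631 genes, 511 (81.0%) had a ratio under 1, and of the 56 longest 55 did. The longest unigenes of RPN2 (3292 bp) and S2 1B (4064 bp) fall among the 631, and so do those of ATG2 (4836 bp), of PA200 (3308 bp, ratio 1.02) and of ATG18G (3502 bp, ratio 0.989). The ratios of RPN2 and S2 1B lay near or above the median of that class, and the part of length in them was not tested.

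**Figure D4:**
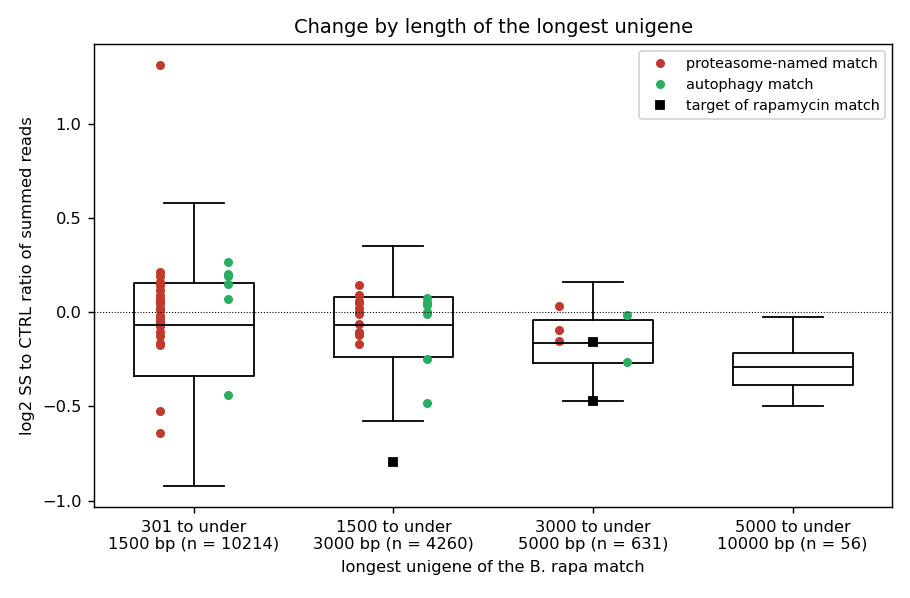
Log2 ratio of summed SS to CTRL reads, scaled to library totals, for each B. rapa gene (y axis) by the length of its longest unigene (x axis). Boxes show the median and the 25th and 75th percentiles of the genes with a unigene at 1 RPKM or more, whiskers the 5th and 95th. Points mark the proteasome genes (red), autophagy genes (green) and target of rapamycin genes (black squares). The box median falls from 0.954 in the shortest class to 0.817 in the longest as a ratio, and 4 of the 5 members from 3000 bp upward lie below 0.

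Assembly factors, activators and inhibitors of the proteasome had 0 of 8 unigenes past 1.5-fold in either direction. UMP1, which assists the assembly of the core and is degraded by the finished proteasome, was highly expressed, with 3536 reads in CTRL and 3285 in SS, or 55.3 and 54.2 RPKM. Proteasome activating protein 200 (PA200), which caps the core in place of the 19S particle, had 6 unigenes on 1 B. rapa gene. Its long unigene (R_30033, 3308 bp) went from 1949 to 2017 reads (ratio 1.09, interval 1.03 to 1.16), whereas another (R_18414) went from 233 to 156 (ratio 0.707, interval 0.574 to 0.870) and R_11078 from 102 to 76. Summed, PA200 had 2578 and 2500 reads (ratio 1.02, interval 0.969 to 1.08). The unigenes of 1 B. rapa gene thus differed among themselves by more than their summed ratio differed from 1. The main proteasome inhibitor-related unigene (R_20181) had 7.74 RPKM in CTRL and 8.05 in SS.

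A further 12 unigenes on 7 genes are described only as PCI domain proteins, a domain shared by subunits of the proteasome lid, the COP9 signalosome and a translation initiation factor, and their complex is not named. They had a median of 7.96 RPKM in CTRL and 7.97 in SS. The highest (R_24207) had 5417 reads in CTRL and 5093 in SS, or 37.6 and 37.3 RPKM. The extremes of the group were short unigenes of the same B. rapa gene, R_7221 with 109 and 67 reads (ratio 0.649, interval 0.472 to 0.888) and R_5411 with 66 and 82 (ratio 1.31, interval 0.937 to 1.84). Of the 7 genes, 1 (Bra006246) had an interval without 1, with 2459 and 2071 reads (ratio 0.890, interval 0.839 to 0.944). The unigenes described as proteasome family protein had ratios of 1.06 (R_24772, interval 1.01 to 1.12, which holds 1 after the centring described for RPT5A) and 1.04 (R_23346, interval 0.926 to 1.17).

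The 37 autophagy unigenes fell on 16 B. rapa genes. Of them, 26 (70.3%) differed by less than 1.25-fold, a smaller share than the 91.9% of core and 19S unigenes and beside 60.6% of all unigenes. By gene, with reads summed, 4 of 16 genes had an interval under 1, 2 had one above 1 and 10 had one that held 1. The same sums were made for the 15161 B. rapa genes with a unigene at 1 RPKM or more and reads in both libraries. Of these genes, 38.7% had an interval under 1 and 22.3% had one above 1. All ratios by gene lay between 0.716 and 1.20.

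**Figure D5:**
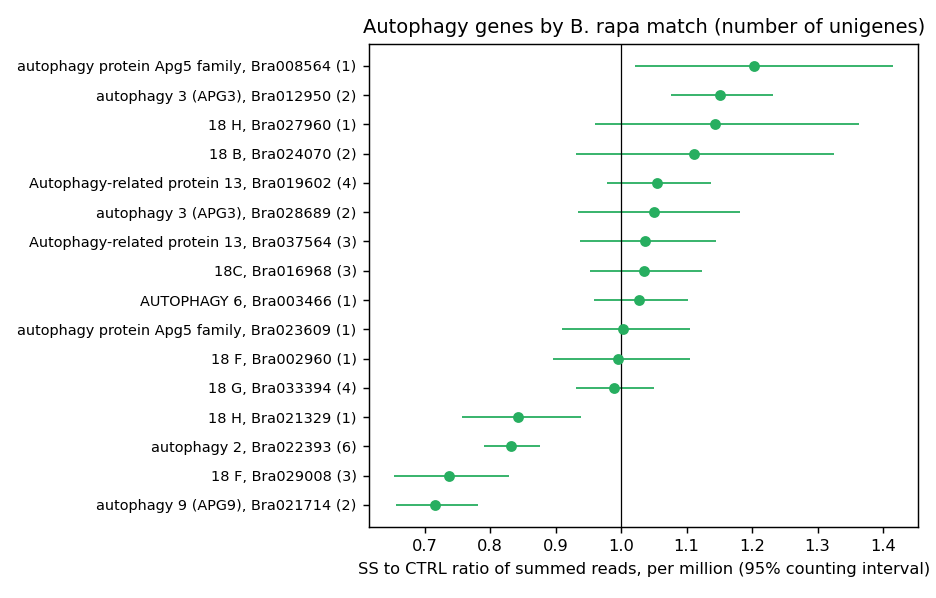
Ratio of SS to CTRL reads scaled to library totals (x axis) for each of the 16 B. rapa genes named for autophagy, with the reads of their unigenes summed (number of unigenes in parentheses). Points are ratios and lines 95% counting intervals, and labels from 18 B to 18C stand for ATG18 forms. ATG9, ATG18F on Bra029008, ATG2 and ATG18H on Bra021329 lie wholly below 1, and ATG5 on Bra008564 and ATG3 on Bra012950 wholly above it.

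The first steps of autophagy are set by a kinase complex that includes ATG13 and by a lipid kinase complex that includes ATG6. ATG6, the plant Beclin, had 1642 reads in CTRL and 1598 in SS, or 9.44 and 9.70 RPKM (ratio 1.03, interval 0.959 to 1.10). ATG13 had 7 unigenes on 2 genes, with summed reads of 1405 and 1403 on Bra019602 (ratio 1.05, interval 0.979 to 1.14) and 796 and 781 on Bra037564 (ratio 1.04, interval 0.938 to 1.15). A fragment of the latter (R_4200, 377 bp) was the only autophagy unigene past 1.5-fold higher in SS, with 40 reads in CTRL and 62 in SS (ratio 1.64, interval 1.08 to 2.50), while the longest unigene of that gene (R_28301) had 626 and 604 reads. At the level of the gene, neither ATG13 copy differed from 1 beyond its counting error.

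ATG9 and ATG2 act in bringing membrane and lipid to the growing autophagosome, and both genes had ratios under 1. ATG9, the membrane protein of the vesicles that seed it, had 2 unigenes on 1 gene. R_28612 went from 915 to 638 reads, or 4.10 to 3.02 RPKM (ratio 0.737, interval 0.665 to 0.816), and R_21121 from 342 to 214 reads, or 2.96 to 1.95 RPKM (ratio 0.661, interval 0.555 to 0.786). Both unigenes were lower in SS, and together they had 1257 and 852 reads (ratio 0.716, interval 0.656 to 0.782), the lowest of the 16 genes. The longest ATG9 unigene had 2352 bp, in a class whose median ratio was 0.955 and whose 5th percentile was 0.669.

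ATG2, which transfers lipid to the membrane, had 6 unigenes on 1 gene, all with a ratio under 1. The 2 long ones went from 1809 to 1405 reads (R_30492, 4.01 to 3.29 RPKM, ratio 0.820, interval 0.765 to 0.880) and from 1198 to 1035 (R_30503, 2.61 to 2.38 RPKM, ratio 0.913, interval 0.839 to 0.993). The 4 short ones had from 32 to 134 reads in CTRL and from 11 to 73 in SS. Among them R_1319 (321 bp), with 32 and 11 reads, was the only member at least 2-fold lower in SS (ratio 0.363, interval 0.165 to 0.739, log2 ratio −1.26), and R_16552, with 134 and 73 reads, had a ratio of 0.575 (interval 0.427 to 0.771). Summed, ATG2 had 3338 and 2628 reads (ratio 0.832, interval 0.790 to 0.875), a value near the 25th percentile of 0.831 of the 631 genes in its length class, and the part of length in it was not tested.

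The conjugation genes had ratios above 1 or intervals that held 1. ATG3 is the enzyme that joins ATG8 to a lipid. Its unigene R_21722 was the highest single autophagy unigene, at 10.9 RPKM in CTRL and 12.5 in SS. Summed over the 4 ATG3 unigenes on 2 genes, RPKM was 33.1 in CTRL and 36.8 in SS. Such a sum counts a gene more than once where its unigenes are pieces of it. On Bra012950, reads went from 1619 to 1765 (ratio 1.15, interval 1.08 to 1.23), with the same ratio of 1.15 in both of its unigenes, R_21722 (1314 and 1432 reads) and R_5339 (305 and 333). On Bra028689, reads went from 575 to 572 (ratio 1.05, interval 0.934 to 1.18). ATG5, which with ATG12 helps ATG3 at the membrane, had 282 and 321 reads on Bra008564 (ratio 1.20, interval 1.02 to 1.42) and 851 and 808 on Bra023609 (ratio 1.003, interval 0.910 to 1.11). No unigene carried an ATG or APG name without the word autophagy. Other conjugation genes, such as those of ATG8, may be described under other names and were not searched for.

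The ATG18 family, proteins that bind phosphoinositide lipids on the membrane, differed among its forms and between the copies of a form. Its lowest member was ATG18F on Bra029008, whose long unigenes R_21900 and R_23967 went from 305 to 202 and from 319 to 212 reads (both ratios 0.70), while its shortest (R_9708) had 56 and 60. Summed, this copy had 680 and 474 reads (ratio 0.736, interval 0.653 to 0.829), whereas the other ATG18F copy, on Bra002960, had 739 and 696 (ratio 0.995, interval 0.896 to 1.10). The intervals of the 2 copies did not overlap.

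ATG18H was split likewise, at 766 and 611 reads on Bra021329 (ratio 0.843, interval 0.756 to 0.938) and 253 and 274 on Bra027960 (ratio 1.14, interval 0.961 to 1.36), again without overlap of the intervals. ATG18G, with the most reads of the family, had 2216 and 2075 (ratio 0.989, interval 0.931 to 1.05). ATG18C had 1167 and 1143 reads (ratio 1.03, interval 0.953 to 1.12) and ATG18B 251 and 264 (ratio 1.11, interval 0.931 to 1.33). Of the 4 autophagy names present on 2 genes with at least 1 interval apart from 1 (ATG3, ATG5, ATG18F and ATG18H), each had a second gene whose interval held 1.

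Related lists give the setting of these values. Ubiquitin genes had the highest levels, with a median of 192 RPKM in CTRL and 179.7 in SS, and none of their 8 unigenes passed 1.5-fold. Enzymes that activate and conjugate ubiquitin had 1 of 47 unigenes past 1.5-fold higher and 6 lower, beside 5.61% and 12.3% of all unigenes. Deubiquitinases had 1 of 112 unigenes higher and 11 lower, beside the same shares of all unigenes. By gene, with reads summed, 31 of 58 had an interval under 1 and 3 had one above 1. Among the 15161 B. rapa genes with a unigene at 1 RPKM or more the shares were 38.7% and 22.3%. The deubiquitinase genes were taken without that minimum and include some matches outside B. rapa. Their median log2 ratio over unigenes was −0.23, with 91 of 112 below 0, beside 24842 of 43250 among all unigenes. That median was −0.12 once the trend with unigene number, and so with length, was removed, and 0.24 with the SS column as deposited, which is without length. Ubiquitin receptors and the segregase CDC48, which hand substrates to the proteasome, had 0 of 21 unigenes past 1.5-fold higher and 4 lower. Among all unigenes these shares were 5.61% and 12.3%, and the receptor and CDC48 unigenes fell on only 10 genes.

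The unigenes described only as Ntn hydrolases had a median log2 ratio of 0.23, with 9 of 10 above 0, beside 18408 of 43250 among all unigenes. Of the 10, 1 was past 1.5-fold higher. By gene, 6 of 10 had an interval above 1 and 0 had one under 1, beside 22.3% and 38.7% of the 15161 B. rapa genes. Which of them are 20S subunits is not given by the description. The highest, on Bra025276, had 41.4 RPKM in CTRL and 42.9 in SS (ratio 1.04, interval 0.993 to 1.08), a level within the range of the named beta subunits. The most changed of the better covered ones, on Bra021164, had 1132 and 1503 reads (ratio 1.40, interval 1.30 to 1.52). COP9 signalosome subunits, of which 3 were found, and NAC053, a transcription factor that in A. thaliana activates proteasome genes, with 2122 reads in SS and 2217 in CTRL (ratio 1.01, interval 0.952 to 1.07), had no unigene past 1.5-fold. Metacaspases and vacuolar processing enzymes, proteases of vacuole and cell death, had none among 9 either.

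Target of rapamycin (TOR) is the kinase that represses autophagy in well-fed cells, and SnRK1 opposes it. Together they made up the list with the lowest median log2 ratio over unigenes (−0.95). By gene, the median ratio was 0.883 in this list and 0.875 among deubiquitinases. Of 17 unigenes, 12 were past 1.5-fold lower and 7 past 2-fold lower in SS, beside 12.3% and 4.21% of all unigenes. The TOR unigenes fell on 3 B. rapa genes, with summed reads of 6236 and 5295 on Bra039647 (ratio 0.897, interval 0.864 to 0.931), 4469 and 3050 on Bra015251 (ratio 0.721, interval 0.688 to 0.755) and 1601 and 874 on Bra018828 (ratio 0.577, interval 0.530 to 0.627). All 3 were lower in SS, and by very different amounts. The SnRK1 kinases KIN10 and KIN11 (described as SNF1 kinase homologs) had ratios of 1.01 (interval 0.967 to 1.06) and 0.883 (interval 0.823 to 0.948). TOR is a very long transcript. Here 15 of the 17 unigenes of the list share 3 genes, so they do not stand for separate genes. Whether they are pieces or copies was not tested. The longest unigenes of the TOR genes had 4890 bp (Bra039647), 4244 bp (Bra015251) and 2422 bp (Bra018828). The 5th percentile of the ratio was 0.721 in the class of the first 2 and 0.669 in that of the third. The median log2 ratio of the list was −0.89 once the trend with unigene number was removed and −0.91 with the SS column as deposited. The part of length in the ratios of the TOR genes was not tested.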

How the data were processed

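Paired-end Illumina reads of the CTRL and SS libraries were assembled by the authors with Trinity after alignment to B. rapa with Tophat, transcripts were clustered with CD-HIT-EST, and high-quality reads were mapped back with BOWTIE2. DESeq is named for normalization. Apart from CD-HIT-EST, tool versions were not given in the sources used here. The deposited CTRL column holds RPKM as the authors calculated it, with the length of each unigene. In the deposited SS column, which has the same name, the values are a signal proportional to reads and without length: 47505 of 47505 were whole numbers of a fixed step (tolerance 0.001 read). SS reads were taken from this step and converted to RPKM with the same lengths as in CTRL. There were 0 further columns of sample values.

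Lengths were found as whole numbers that rise with the unigene number and turn the CTRL values into whole reads. This left 0 unigenes off whole reads and 41 of 47513 with more than 1 possible length, none of them a proteasome or autophagy unigene. The recovery was tested on simulated data. On a unigene of 1000 bp, 1 read corresponds to 0.0105 RPKM (CTRL) or 0.0111 RPKM (SS).

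For log2 ratios 0.1 RPKM was added as pseudocount, and unigenes below 1 RPKM in both libraries were left out. Reads have exact Poisson and ratios Clopper-Pearson 95% intervals (Python 3.11.15, NumPy 2.4.6, pandas 2.3.3, SciPy 1.17.1), which cover counting error only. With 1 library per condition no test was made, and called means past 2-fold or 1.5-fold. Where reads are summed over unigenes, ratios compare reads per high-quality read of each library.

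The unigenes and the lists were chosen with earlier results of these data known. Groups were taken by words in the description, and 3 word patterns (Rpn7, PCI domain and OTU) were corrected after the descriptions had been read. The rule for single unigenes took, in each group, the highest in CTRL, the 2 largest and 2 smallest log2 ratios, every unigene past 2-fold and any with 0 reads in 1 library. Groups of up to 6 unigenes could be given whole. Other unigenes, also those sharing 1 gene, were named after their values were seen. Alternatives were pseudocounts of 0.01 and 1 RPKM, no minimum, a minimum of 5 RPKM, centring, equal totals, removal of a running median over 500 unigenes, SS as deposited and, chosen after seeing the data, reads summed by B. rapa gene.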

Additional observations from a re-analysis of the deposited data

How the results depend on the processing

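With 1 library per condition, none could be left out, and no spread between seedling pools is known. No paired analysis was possible because each condition has 1 library. A pseudocount of 0.01 RPKM, no minimum, centring on well covered unigenes (a shift of 0.02 on the log2 scale) and equal totals (0.01) moved no count by over 1.5 times. The largest moves were in unigenes 1.5-fold lower, from 5 to 6 members and from 3 to 4 autophagy unigenes, with the pseudocount of 0.01 and with centring. Group medians this close to 0 can change sign: 47 of 96 log2 ratios were above 0, 41 after centring and 62 once the running median was removed. Counts of 1 to 5 unigenes rest on few reads.

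With a pseudocount of 1 RPKM, 0 members were 2-fold higher or lower, 1 was 1.5-fold higher (RPT2B) and 0 were 1.5-fold lower, and the autophagy group had 0 past any of these. With a minimum of 5 RPKM, every count was 0. With the running median removed, 0 members were 2-fold lower and 2 were 1.5-fold lower, 0 of them in the core or the 19S particle, whose median log2 ratio became 0.0753 (autophagy genes 0.0978, all members 0.0772), and 0 autophagy unigenes were 2-fold lower. With reads summed by gene, 0 of 61 genes were 2-fold lower, 1 was 1.5-fold higher (RPT2B) and 1 was 1.5-fold lower (S2 1B on Bra010366), and 0 of 16 autophagy genes passed either fold.

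With SS as deposited, which leaves length in the ratio, 15 members were 2-fold higher and 10 lower, and 33 were 1.5-fold higher and 21 lower. In the core and 19S particle these counts were 4, 2, 13 and 3, and among autophagy unigenes 9, 5, 12 and 12. Median log2 ratios became 0.3577 for core and 19S unigenes, 0.824 for the ATPase ring, 0.4389 for non-ATPase subunits, 0.3295 for the alpha ring, 0.2607 for PCI domain proteins and 0.8908 for the proteasome family proteins. The ATG13 fragment R_4200 reversed, to a log2 ratio of -0.4162. The construction of that column, in which every unigene has the same length, shows the cause.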
